A study of Mus musculus with 29 samples.

Results

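The genes described here are 8 genes of the growth cone and of the neuronal microtubule and actin skeleton: Gap43, Map1b, Dcx, Dpysl2, Tubb3, Map2, Map6d1 and Actb. They were taken by symbol from the authors' deposited table of lesion against naive comparisons, where they are 8 of 5826 genes. They were chosen with their fold changes known, so their values are a description. The only p-values added here are those after centring on genes of similar rank, and for the members these are a description too. The cultures were cortical neurons of adult wild-type C57/BL6 mice. Lesion groups came from animals given an in vivo conditioning lesion on the day before plating, and naive groups from animals given no treatment; strain, genotype and tissue were the same in all groups. RNA was sequenced at days 1, 2, 3, 5 and 7 in culture, with 3 libraries in each of the 10 groups except naive at day 7, which had 2 (29 in all). The labels do not say where or how the lesion was made, nor whether libraries of a group came from separate animals or cultures, so p-values measure only the spread between these libraries, which may be technical. Values per library were not analysed here and the depth is unknown here. The table holds genes past an adjusted p of 0.1 on at least 1 day, 30.5% of the 19085 tested. Below, "rose" and "fell" stand for an adjusted p under 0.1 at that day, a positive log2 fold change stands for more RNA in the lesion group, and errors in brackets are standard errors worked back from the fold change with its p-value. The table's rank column is not explained in the file; it is read here as a rank of mean expression with low numbers for abundant genes, a reading that was not tested, and the comparisons by rank below rest on it.

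A growth cone advances by building actin filaments at its edge and extending microtubules behind it. Microtubules are polymers of alpha and beta tubulin; structural microtubule-associated proteins (MAPs) bind along them, collapsin response mediator proteins (CRMPs) bind tubulin dimers, and membrane proteins such as GAP-43 link signals at the edge to actin. Many of these genes are highly expressed in developing neurons, and several are raised in peripheral neurons that regrow an axon.

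Map1b and Dcx are shown with their promoters because both rose at day 1 and fell at days 2 and 5, and Map6d1 because its course differed from that of the other members. RefSeq windows (GRCm38.p6) of 300 bases, from 250 before to 50 after a start site, were at hand for 5 of the 8 genes: Map1b, Dcx, Map2, Tubb3 and Map6d1. The 3 windows below run 5′ to 3′ on the gene's strand, with each match to TATAAA in capitals.

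Map1b (chr13:99516553-99516852, minus strand): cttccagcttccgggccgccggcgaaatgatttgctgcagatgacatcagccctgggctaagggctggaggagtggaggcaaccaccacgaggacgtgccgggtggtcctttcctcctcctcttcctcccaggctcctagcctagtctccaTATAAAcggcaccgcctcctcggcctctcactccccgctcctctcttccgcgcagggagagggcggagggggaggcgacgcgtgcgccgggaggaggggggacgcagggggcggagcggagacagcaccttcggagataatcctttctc

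Dcx (chrX:143933170-143933469, minus strand): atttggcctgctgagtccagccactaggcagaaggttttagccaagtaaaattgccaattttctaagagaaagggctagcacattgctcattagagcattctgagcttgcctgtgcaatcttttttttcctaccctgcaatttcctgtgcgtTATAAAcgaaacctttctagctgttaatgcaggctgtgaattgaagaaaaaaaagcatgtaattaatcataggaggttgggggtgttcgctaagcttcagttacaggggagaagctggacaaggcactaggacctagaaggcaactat

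Map6d1 (chr16:20241309-20241608, minus strand): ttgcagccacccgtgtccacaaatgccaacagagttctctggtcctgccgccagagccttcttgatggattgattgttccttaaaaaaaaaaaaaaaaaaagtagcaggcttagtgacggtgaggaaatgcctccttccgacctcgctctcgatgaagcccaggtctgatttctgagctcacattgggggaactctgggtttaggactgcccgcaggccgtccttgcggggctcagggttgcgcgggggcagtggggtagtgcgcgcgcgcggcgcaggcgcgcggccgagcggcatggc

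TATAAA, the core letters of the TATA box, began at position -99 in the Map1b window and at -98 in the Dcx window. These exact letters were not found in the windows of Map2, Tubb3 and Map6d1, and 13.6% of the 32851 RefSeq windows hold them on either strand. Variants of the letters were not searched, and position was not used in the search. No match is thus shown to be a working TATA box, nor a window without a match to lack one. Dcx has another window shifted by fewer than 100 bases, in which the same TATAAA begins at position -193. The GC box letters GGGCGG matched 5 times in the Map2 window, 2 times in each of Map1b and Tubb3, and not in Dcx or Map6d1, against 35.7% of all windows. CCAAT matched once each in Tubb3, Dcx and Map6d1 (37.4% of all windows), and the AP-1 letters TGANTCA matched in none of the 5 genes' windows (7.81% of all). All motifs were searched on both strands, and no matches of different motifs overlapped in the printed windows. The Dcx window was 43.0% G and C, against 65.7% for Map1b, 67.3% for Tubb3 and 77.7% for Map2; the median of all windows was 52.7%. Map1b and Dcx, which had the same call at every day, thus have promoters of unlike base composition.

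Map1b encodes a MAP of growing axons, a large protein cut into a heavy and a light chain. It lies at chr13:99421446-99516540 (GRCm38, GENCODE vM21). In the authors' deposited table its log2 fold change was 1.10 (0.25, adjusted p = 0.0462) at day 1, -0.82 (0.22, adjusted p = 0.0333) at day 2, 0.15 (0.24) at day 3, -0.93 (0.29, adjusted p = 0.0292) at day 5 and 0.31 (0.36) at day 7. Map1b thus rose at day 1, fell at days 2 and 5, and did not pass at days 3 and 7. The step from day 1 to day 2 was -1.92 with an implied standard error of 0.33. Here and below, errors of steps join those of the 2 days as if the days were independent, which could not be checked here.

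Dcx, on the X chromosome (chrX:143855842-143933311), encodes doublecortin, a MAP of migrating and immature neurons. Its log2 fold change in the authors' deposited table was 1.02 (0.25, adjusted p = 0.0623) at day 1, -0.86 (0.23, adjusted p = 0.0381) at day 2, 0.82 (0.28, adjusted p = 0.154) at day 3, -1.46 (0.38, adjusted p = 0.00884) at day 5 and -0.01 (0.50) at day 7. The steps between days were -1.88 ± 0.34 (implied standard error) from day 1 to 2, 1.68 ± 0.36 from day 2 to 3 and -2.28 ± 0.47 from day 3 to 5. Dcx thus had values above 0 at days 1 and 3 and below 0 at days 2 and 5, with the day 3 value short of the threshold.

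Dpysl2 (chr14:66802864-66868688) encodes CRMP2, which promotes microtubule assembly in axons. In the authors' deposited table it had log2 fold changes of 0.91 (0.24, adjusted p = 0.0984) at day 1, -1.13 (0.25, adjusted p = 0.0158) at day 2, 0.06 (0.28) at day 3, -0.84 (0.32, adjusted p = 0.0688) at day 5 and -0.16 (0.36) at day 7. Its step from day 1 to 2, -2.04 ± 0.35 (implied standard error), was the most negative of the 7 members ranked within the first 1000. The day 1 call is close to the threshold and is not past 0.05.

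Map2 (chr1:66175273-66442583) encodes the MAP of dendrites and cell bodies. It had the sign sequence of Dcx in the authors' deposited table, with log2 fold changes of 0.92 (0.26, adjusted p = 0.133) at day 1, -0.55 (0.23, adjusted p = 0.177) at day 2, 0.89 (0.27, adjusted p = 0.119) at day 3, -1.70 (0.36, adjusted p = 0.00173) at day 5 and -0.61 (0.40) at day 7. Only the day 5 value passed. An antisense gene, Gm10558, shares 124 exonic bases with Map2, and Gm49566 shares 87 with Map6d1; whether counting used strand is not given in the sources used here.

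**Figure D1:**
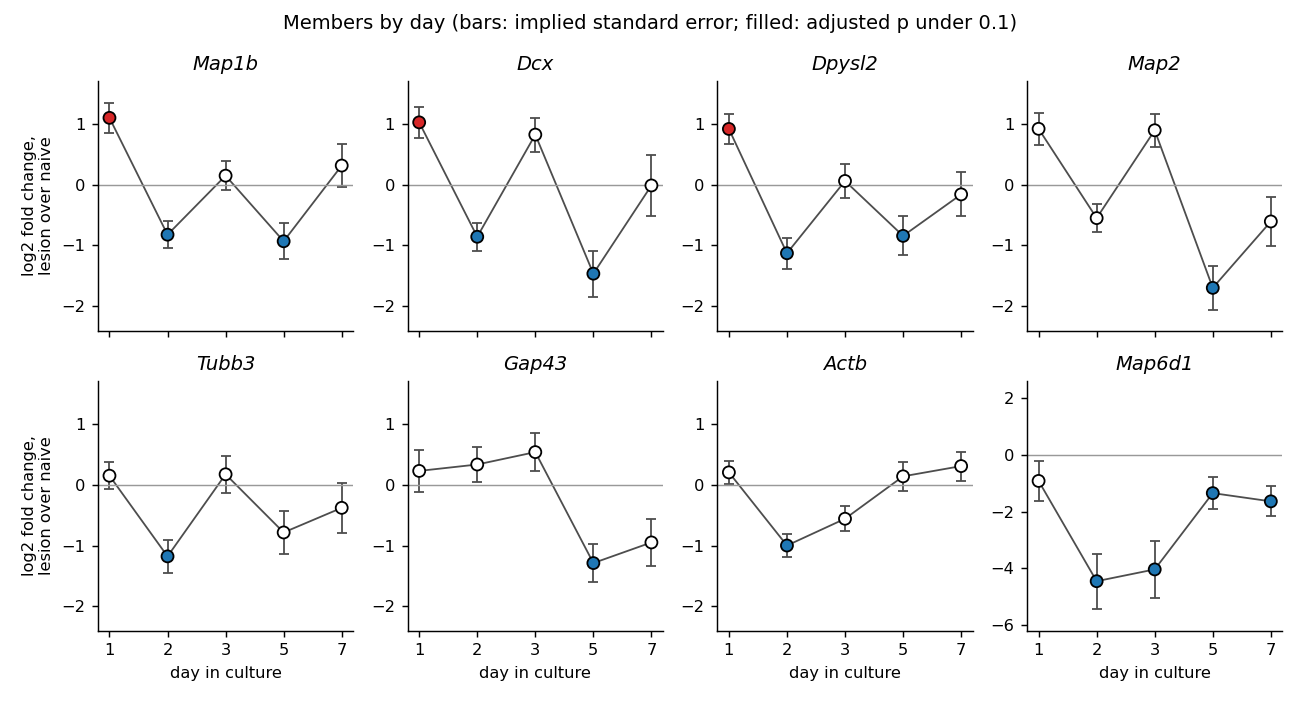
Log2 fold change of lesion over naive (y axis) by day in culture (x axis) for each of the 8 genes, from the authors' deposited table; bars are implied standard errors, red points rose, blue points fell and white points did not pass an adjusted p of 0.1. Map1b, Dcx and Dpysl2 are red at day 1 and blue at days 2 and 5; Map6d1 has its own y scale and is lowest at day 2, at -4.45.

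Tubb3 (chr8:123411424-123422015), the class III beta tubulin of neurons, did not rise at day 1. Its log2 fold changes in the authors' deposited table were 0.15 (0.23) at day 1, -1.18 (0.27, adjusted p = 0.0176) at day 2, 0.17 (0.30) at day 3, -0.79 (0.35, adjusted p = 0.116) at day 5 and -0.38 (0.41) at day 7. It fell at day 2, and its day 5 value lies just outside the threshold. Reads of near-identical tubulin or actin copies may have been split or shared by the authors' counting, so values of single tubulins and actins are uncertain.

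Gap43 (chr16:42248442-42340651), the membrane phosphoprotein gene of the growth cone, followed another course. In the authors' deposited table its log2 fold change was 0.22 (0.34) at day 1, 0.33 (0.29) at day 2, 0.53 (0.31) at day 3, -1.29 (0.31, adjusted p = 0.00543) at day 5 and -0.95 (0.38, adjusted p = 0.192) at day 7. Gap43 was the only one of the 8 with a value above 0 at day 2, and it fell at day 5 alone. Its step from day 3 to 5 was -1.82 ± 0.44 (implied standard error).

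Actb (chr5:142903115-142906754), cytoplasmic beta actin and a common reference gene, fell at day 2 alone. The values in the authors' deposited table were 0.20 (0.19) at day 1, -1.00 (0.19, adjusted p = 0.00682) at day 2, -0.56 (0.21, adjusted p = 0.182) at day 3, 0.14 (0.23) at day 5 and 0.30 (0.24) at day 7. Actb was the only member above 0 at day 5. Its neighbour in function Actg1, cytoplasmic gamma actin, had a log2 fold change of -0.87 (0.17, adjusted p = 0.00668) at day 2 in the authors' deposited table.

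Map6d1 (chr16:20233303-20241358) encodes a small relative of the microtubule-stabilising protein MAP6. All 5 of its values were below 0 in the authors' deposited table: -0.92 (0.70) at day 1, -4.45 (0.97, adjusted p = 0.0140) at day 2, -4.04 (0.99, adjusted p = 0.0586) at day 3, -1.35 (0.57, adjusted p = 0.0993) at day 5 and -1.64 (0.53, adjusted p = 0.0983) at day 7. It showed no change of sign between days, and its day 5 and day 7 calls lie just inside the threshold. Map6d1 has rank 9076 in the authors' deposited table, while the other 7 members rank between 7 (Actb) and 993 (Dcx). Its implied errors, 0.53 to 0.99, are larger than the 0.19 to 0.50 of the other members. Levels per library were not analysed, so it is unknown here whether Map6d1 was at or near 0 in some groups. The size of its fold changes is therefore uncertain.

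Among the 8 members 3 rose and none fell at day 1, where 0.0891% of all genes tested rose and 0.529% fell. At day 2 none rose and 6 fell (all but Gap43 and Map2), against 4.08% of all genes fallen and 1.89% risen. Day 3 had 1 fallen member, Map6d1 and none risen (0.943% of all genes fell and 0.534% rose). At day 5 there were 6 fallen members (all but Tubb3 and Actb) and none risen, against 11.2% of all genes fallen and 12.8% risen. At day 7 only Map6d1 fell and none rose (0.985% of all genes fell and 3.11% rose). These shares are background for genes that were picked from these same comparisons, and nothing is read from the contrast. The members' median log2 fold change was 0.57, -0.93, 0.16, -1.11 and -0.27 at days 1, 2, 3, 5 and 7, beside 0.00045, -0.10, -0.10, 0.17 and 0.14 for all genes of the authors' deposited table.

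The median of abundant listed genes had the sign of the members' median at every day, and lay nearer to 0 at each day but day 3. Of the 1000 highest ranked genes 526 are in the authors' deposited table, and their median log2 fold change was 0.05 at day 1, -0.05 at day 2, 0.19 at day 3, -0.51 at day 5 and -0.08 at day 7. Those 526 were listed because they changed at some day, so their median is not that of all 1000. Of all 1000, 0.7% rose and 1.9% fell at day 1, 7.5% rose and 9.2% fell at day 2, and 1.9% rose and 0.2% fell at day 3. At day 5, 11.9% rose and 30.3% fell, and at day 7, 3.2% rose and 0.9% fell. The sign sequence of Map1b, Dcx, Dpysl2, Map2 and Tubb3 (above 0 at day 1, below at day 2, above at day 3, below at day 5) was shown by 150 of the 526 (28.5%) and by 759 of the 5826 (13.0%).

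With each fold change taken relative to the median of the 500 listed genes nearest in rank, 1 of the 3 members risen at day 1 still passed, Map1b (1.05, adjusted p = 0.0461), while Dcx (0.86, adjusted p = 0.193) and Dpysl2 (0.77, adjusted p = 0.264) did not. At day 5 only Map2 of the 6 fallen members still passed (-1.14, adjusted p = 0.0406). The day 5 centre was between -0.58 and -0.50 for the 7 members ranked within the first 1000, and centred values were -0.71 for Gap43, -0.88 for Dcx, -0.43 for Map1b and -0.28 for Dpysl2. For Map6d1 the centre was 0.09, and its value moved from -1.35 to -1.43 while its adjusted p went from 0.0993 to 0.162. The adjusted p-values after centring enter genes outside the table as not changed, so a call lost there is not by itself a smaller difference. All 6 members fallen at day 2 still passed. The members were chosen with these same fold changes known, and the centre is a median of genes listed for change. These passes and losses are therefore a description and favour no call over another. Without the 0.05 to 0.1 range of adjusted p, 1 member had risen at day 1, 6 had fallen at day 2 and 4 at day 5.

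**Figure D2:**
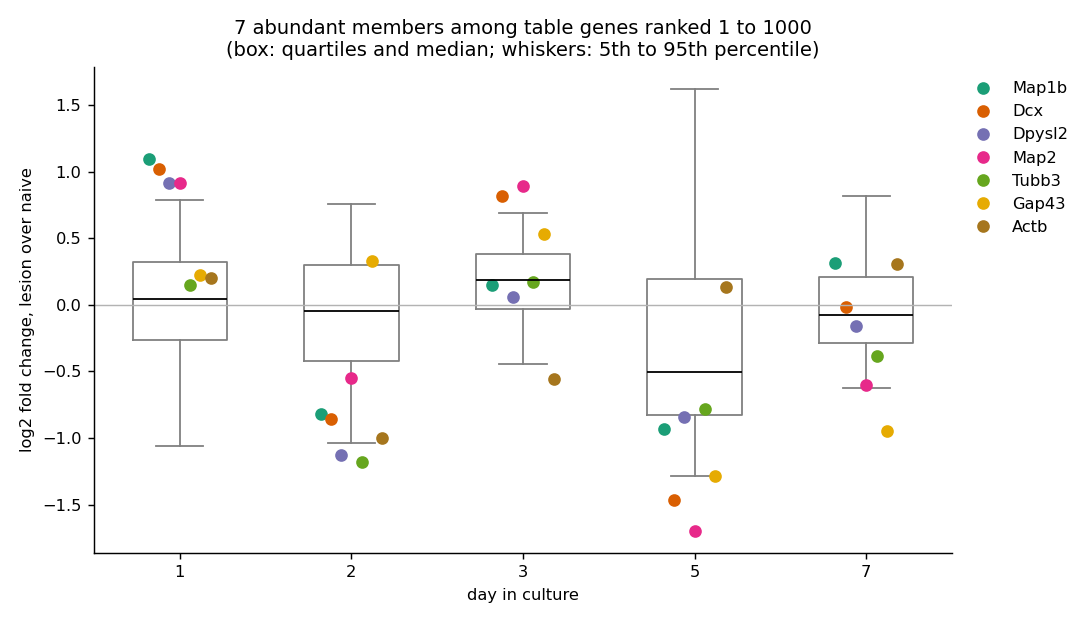
Log2 fold change of lesion over naive (y axis) by day (x axis) for the 7 members ranked within the first 1000 (coloured points) against boxes of the 526 genes of that rank range in the authors' deposited table (quartiles and median). At day 5 the box median itself is at -0.51, and Dcx (-1.46) and Map2 (-1.70) are the lowest points.

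The rise of Map1b, Dcx and Dpysl2 at day 1 followed by a fall was shared with other genes. Of the 17 genes that rose at day 1 in the authors' deposited table, 8 fell at day 2, 14 fell at day 5 and 7 fell at both. The 7 were Map1b, Dcx, Dpysl2, Aff4, Prpf8, Cep170 and Smarca4. All 17 had a value below 0 at day 5, when the median of abundant listed genes was also below 0. Aff4 (a transcription elongation factor) had -0.71 at day 2 and -1.53 at day 5, and Cep170 (a centrosome and microtubule protein) had -0.80 and -1.17 in the authors' deposited table.

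**Figure D3:**
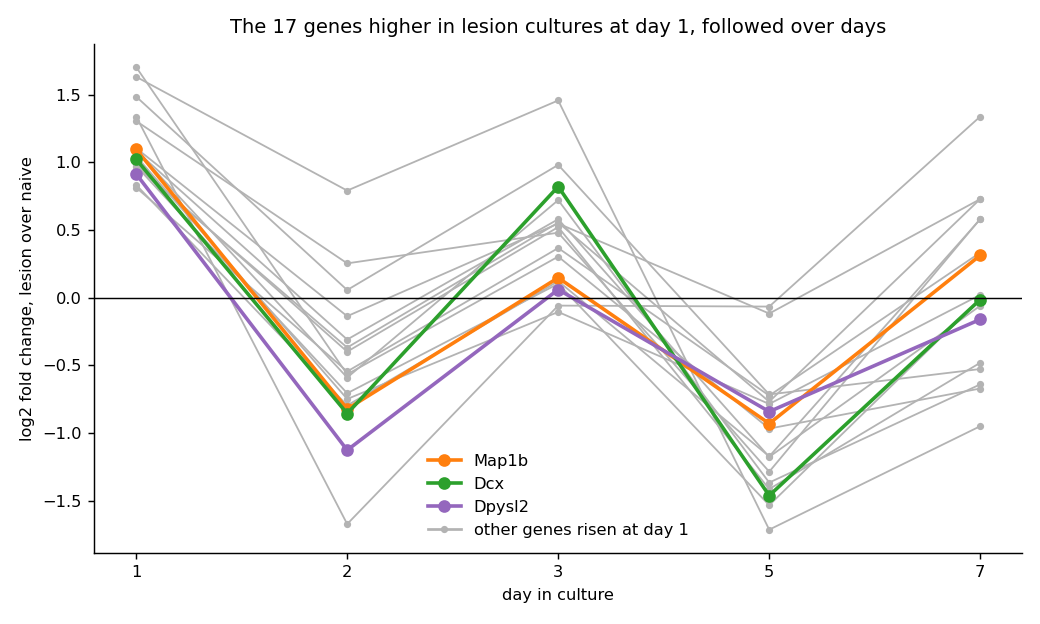
Log2 fold change of lesion over naive (y axis) by day in culture (x axis) for the 17 genes that rose at day 1 in the authors' deposited table, with Map1b, Dcx and Dpysl2 in colour and the other 14 genes in grey. All 17 lines are below 0 at day 5.

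Among other genes of the same cytoskeletal roles none passed at day 1, and at days 2 and 5 more fell than rose. The 9 role lists name 160 genes beside the 8 members, and 77 of them are in the authors' deposited table. None of the 160 passed at day 1, where the median of the 77 was 0.37. At day 2, 23 of 160 fell (14.4%) and none rose. At day 3, 2 rose (Gpm6b and Snap25, 1.25%) and none fell. Of all genes 0.534% rose at day 3, and of the 1000 highest ranked 1.9%, so this count is no result about the role genes. At day 5, 50 fell (31.2%) and 10 rose (6.25%, against 12.8% of all genes), and the median of the 77 was -0.88. At day 7, 5 rose (3.12%) and 1 fell (0.625%), shares near the 3.11% and 0.985% of all genes. The day 2 share lies above both the 4.08% of all genes and the 9.2% of the 1000 highest ranked ones. The lists were chosen with earlier results of these data known, so no excess is read from this. Members included, only 39 of the 85 role genes in the authors' deposited table rank within the first 1000. The share fallen at day 5 lies close to the 30.3% of those 1000 and is no result about the role genes beyond that. Members included, 6 rather than 56 role genes had fallen at day 5 after centring on genes of similar rank, and 18 rather than 29 at day 2. A listed gene outside the table passed at no day or was not tested.

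Tubulin genes passed in both directions at day 5, with the share fallen near that of all genes. Of the 15 besides Tubb3, 5 fell at day 2 (Tubb5, Tubb4a, Tuba1a, Tuba1b and Tubb2b). This is 33.3%, beside 4.08% of all genes and 9.2% of the 1000 highest ranked. In the authors' deposited table Tubb5, a widely expressed beta tubulin, had a log2 fold change of -1.32 (0.23, adjusted p = 0.00168) at day 2, and Tubb4a had -1.09 (0.20, adjusted p = 0.00417). At day 5, 4 rose (Tubb6, Tuba1c, Tuba4a and Tuba1b) and 2 fell (Tubb2b and Tubb4a). The share risen was 26.7%, beside 12.8% of all genes, and the share fallen 13.3%, near the 11.2% of all genes. Tubb6 rose by 3.39 (0.57, adjusted p = 0.000138) and Tuba1c by 2.75 (0.62, adjusted p = 0.00278) at day 5 in the authors' deposited table. The brain-enriched tubulin gene Tuba1a had -1.05 (adjusted p = 0.0108) at day 2 and -0.51 (adjusted p = 0.220) at day 5 in the authors' deposited table.

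Among the 12 other structural MAPs 2 fell at day 2 (16.7%, beside 4.08% of all genes and 9.2% of the 1000 highest ranked). At day 5, 5 fell (41.7%) and 1 rose (8.33%), beside 11.2% and 12.8% of all genes. Of the 1000 highest ranked genes 30.3% fell at day 5. Mapt, the gene of axonal tau, had log2 fold changes of 0.89 (adjusted p = 0.276) at day 1, -0.63 (adjusted p = 0.162) at day 2 and -1.22 (0.34, adjusted p = 0.0154) at day 5 in the authors' deposited table. Map9 fell by 1.58 at day 5 (0.42, adjusted p = 0.0107) and by 1.37 at day 7 (adjusted p = 0.0673) in the authors' deposited table. Map7d2 had -0.98 (adjusted p = 0.0337) at day 5, and Map7d1 had -0.67 (adjusted p = 0.0437) at day 2 and -0.03 at day 5 in the authors' deposited table. The riser was Map7d3, listed under an older symbol, which had 3.62 (1.48, adjusted p = 0.0901) at day 5 in the authors' deposited table.

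All 4 other CRMP genes fell at day 5, with log2 fold changes of -1.13 for Crmp1, -0.81 for Dpysl3, -1.27 for Dpysl4 and -1.32 for Dpysl5 in the authors' deposited table. Only Dpysl5 also fell at day 2, with -1.20 (0.29, adjusted p = 0.0222) in the authors' deposited table. At day 1 the 4 had values between 0.44 and 0.91 in the authors' deposited table, none of which passed. Of all genes 4.08% fell at day 2 and 11.2% at day 5, and of the 1000 highest ranked 9.2% and 30.3%.

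Microtubule end proteins fell in 11 of 21 cases at day 5 (52.4%) and in 2 at day 2 (9.52%). The shares of all genes were 11.2% and 4.08%, and those of the 1000 highest ranked 30.3% and 9.2%. The day 2 share is thus near that of the 1000. Apc, a plus-end protein that is also a Wnt pathway scaffold, fell by 1.65 (0.29, adjusted p = 0.000245) at day 5 in the authors' deposited table. Mapre2, which encodes the end-binding protein EB2, had -0.83 (adjusted p = 0.00740), and Clip3 had -1.16 (adjusted p = 0.00916), both at day 5 in the authors' deposited table. Slain1, a partner of plus-end growth factors, fell at both day 2 (-1.00, adjusted p = 0.0149) and day 5 (-1.01, adjusted p = 0.0380) in the authors' deposited table. Stathmins, which sequester tubulin dimers, and severing enzymes gave 5 fallen of 11 at day 5 (45.5%) and none at day 2. Stmn4 had -1.15 (adjusted p = 0.00164), Stmn3 -1.16 (adjusted p = 0.00742) and Stmn1 -0.86 (adjusted p = 0.0717) at day 5 in the authors' deposited table.

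Tubulin folding and modifying genes gave 1 fallen of 20 at day 2 (5.0%) and 2 at day 5 (10%), near the 4.08% and 11.2% of all genes. The tubulin acetylase gene Atat1 had -0.75 (adjusted p = 0.0585) at day 2, the polyglutamylase gene Ttll7 had -1.60 (adjusted p = 0.0391) at day 5 and the deglutamylase gene Agtpbp1 had -1.13 (adjusted p = 0.0535) at day 5 in the authors' deposited table. Kinase genes that act on microtubule proteins gave 2 fallen of 17 at day 2 (11.8%) and 4 at day 5 (23.5%). Of the 1000 highest ranked genes 9.2% and 30.3% fell at these days, so neither count is read as a result about kinases. Cdk5r1, the activator of neuronal Cdk5, had -0.96 (adjusted p = 0.0437) at day 2 and -1.41 (adjusted p = 0.0311) at day 5 in the authors' deposited table. At day 5 Gsk3b had -0.89 (adjusted p = 0.0224), Camk2b -1.12 (adjusted p = 0.00658) and Mapk10 -1.05 (adjusted p = 0.0669) in the authors' deposited table.

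Growth-cone membrane protein genes beside Gap43 gave 4 fallen of 17 at day 2 (23.5%), 2 risen at day 3 (11.8%) and 8 fallen at day 5 (47.1%). Of all genes 4.08% fell at day 2, 0.534% rose at day 3 and 11.2% fell at day 5. For the 1000 highest ranked these shares were 9.2%, 1.9% and 30.3%. Basp1, which shares effector functions with GAP-43, had log2 fold changes of -0.04 at day 1, -0.0032 at day 2, 0.39 at day 3 and -1.13 (0.26, adjusted p = 0.00305) at day 5 in the authors' deposited table, so, like Gap43, it fell at day 5 alone. Gpm6a had -1.25 (adjusted p = 0.000907) and Marcksl1 -1.06 (adjusted p = 0.0127) at day 5 in the authors' deposited table. Snap25, a membrane fusion gene that is also on the neuronal marker list, rose at day 3 (0.96, adjusted p = 0.0784) and fell at day 5 (-0.88, adjusted p = 0.0134) in the authors' deposited table. Ncam1, an adhesion molecule, fell by 0.84 at day 2 and rose by 1.19 (adjusted p = 0.0383) at day 7 in the authors' deposited table.

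Actin and actin-regulator genes beside Actb gave 6 fallen of 43 at day 2 (14.0%) and both 5 risen (11.6%) and 9 fallen (20.9%) at day 5. Beside the day 2 share stand 4.08% of all genes and 9.2% of the 1000 highest ranked. The day 5 share risen is near the 12.8% of all genes. The day 5 share fallen lies between the 11.2% of all genes and the 30.3% of the 1000 highest ranked. The risers were Gsn, Arpc1b, Pfn1, Rhoa and Vasp. Gsn, the severing protein gelsolin, rose by 2.05 (0.26, adjusted p = 2.67e-06) and Arpc1b, a subunit of the Arp2/3 complex, by 2.44 (0.53, adjusted p = 0.00191) at day 5 in the authors' deposited table. Cfl2, a cofilin gene, had -0.93 (adjusted p = 0.00559) at day 5 in the authors' deposited table.

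**Figure D4:**
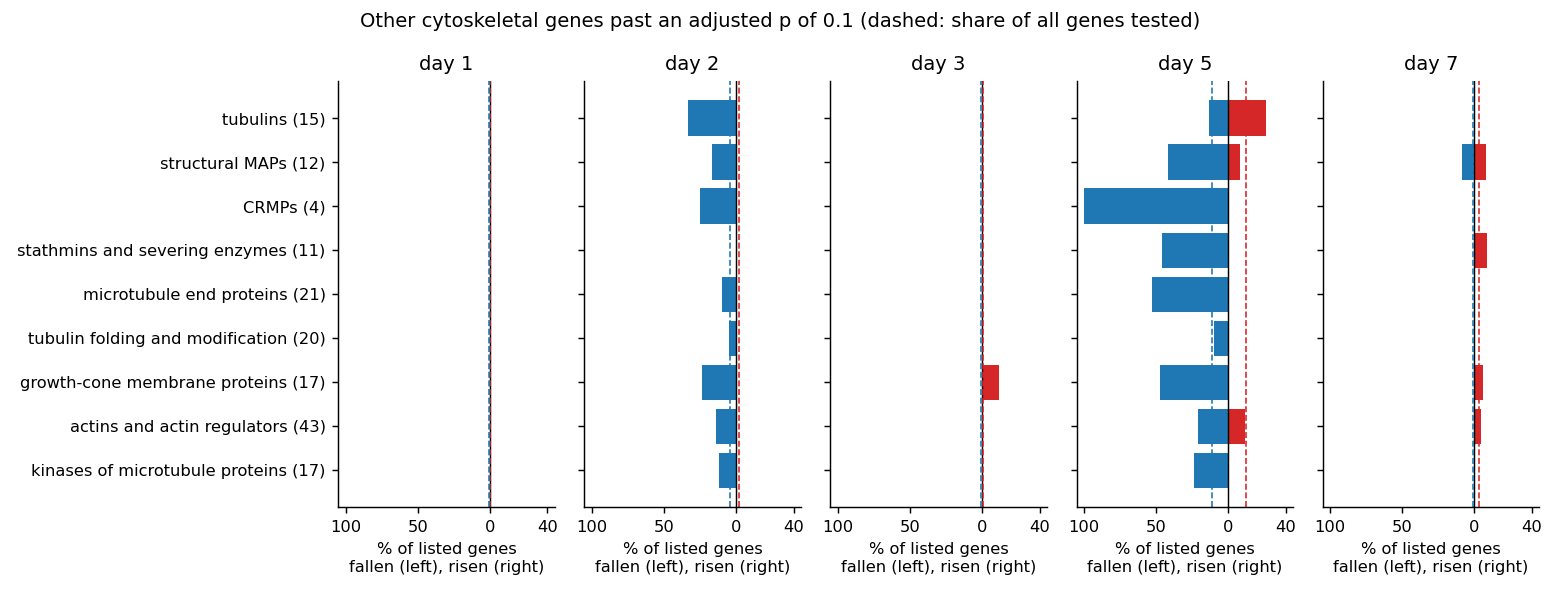
Share of each role list (members left out; number of listed genes in brackets) that fell (blue, left) or rose (red, right) at an adjusted p under 0.1, by day; dashed lines give the share of all 19085 genes tested. No listed gene passes at day 1, and at day 5 all 4 other CRMP genes fell while tubulins show 4 risen and 2 fallen.

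The labelled cell type is the adult neuron, and the 11 pan-neuronal markers in the authors' deposited table stand between ranks 478 (Celf4) and 11022 (Nefm), beside 351 (Fn1) to 15562 (Lum) for the 12 mural and fibroblast markers. Ranks are not levels per length, and no share of cells is read from them. Markers of other cells passed at all 5 days. At days 3 and 7 Map6d1 was the only member that passed. Of the 18 pan-neuronal markers 1 rose at day 3 (5.56%, against 0.534% of all genes). At day 7, 1 of them fell (5.56%, against 0.985% of all genes). At day 3, 2 of 15 oligodendrocyte lineage markers and 4 of 15 endothelial markers fell, against 0.943% of all genes. At day 7, 7 of 15 mural and fibroblast markers and 4 of 15 proliferation markers rose, against 3.11% of all genes. In bulk RNA, fewer cells of a type and less RNA per cell cannot be told apart. At day 5, 14 of 15 proliferation markers rose (median 3.66 over the 14 in the authors' deposited table), as did 12 of 15 mural and fibroblast markers (median 4.03) and 7 of 15 astrocyte markers with 1 fallen (median 2.59). At the same day 9 of 18 pan-neuronal markers fell and none rose, with values from -1.59 to 0.41 and a median of -1.10 over the 11 in the authors' deposited table. At day 2, when the pan-neuronal markers gave 2 fallen and 1 risen (median 0.01), 8 of 15 endothelial markers fell (median -2.21), 5 of 15 oligodendrocyte lineage markers (median -3.23) and 5 of 15 proliferation markers (median -1.29). At day 1, 2 of 15 microglia and macrophage markers fell, Cd14 and Csf1r, and none of the pan-neuronal markers passed (median 0.52). Of all genes tested 0.529% fell at day 1. At day 2, 4.08% fell and 1.89% rose, and at day 5, 11.2% fell and 12.8% rose. The medians cover only markers that passed on at least 1 day. The part of cell composition in the members' values was not tested, and levels per library that would show markers at or near 0 were not analysed here.

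Dcx and Tubb3 are also on the list of 15 immature neuron markers. Of its 13 other genes 6 fell at day 2 (46.2%), with 1 risen, and 8 fell at day 5 (61.5%), with 1 risen. Of all genes tested 4.08% fell at day 2 and 11.2% at day 5. Sox11, a transcription factor of young neurons, had log2 fold changes of 0.90 (adjusted p = 0.141) at day 1, -1.32 (adjusted p = 0.0108) at day 2, 0.40 at day 3 and -1.15 (adjusted p = 0.0788) at day 5 in the authors' deposited table. Sox4 had 0.54, -0.90 (adjusted p = 0.0437), 0.22 and -1.01 (adjusted p = 0.0365) at the same days in the authors' deposited table. Both thus had the signs of Dcx at these 4 days, but they were picked after their values were seen. The 11 other listed genes in the authors' deposited table had values of both signs at each of these days. They ran from -2.59 to 1.12 at day 1, -3.30 to 1.64 at day 2, -3.66 to 1.16 at day 3 and -2.27 to 3.91 at day 5. The sign sequence was also shown by 28.5% of the 526 abundant listed genes.

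**Figure D5:**
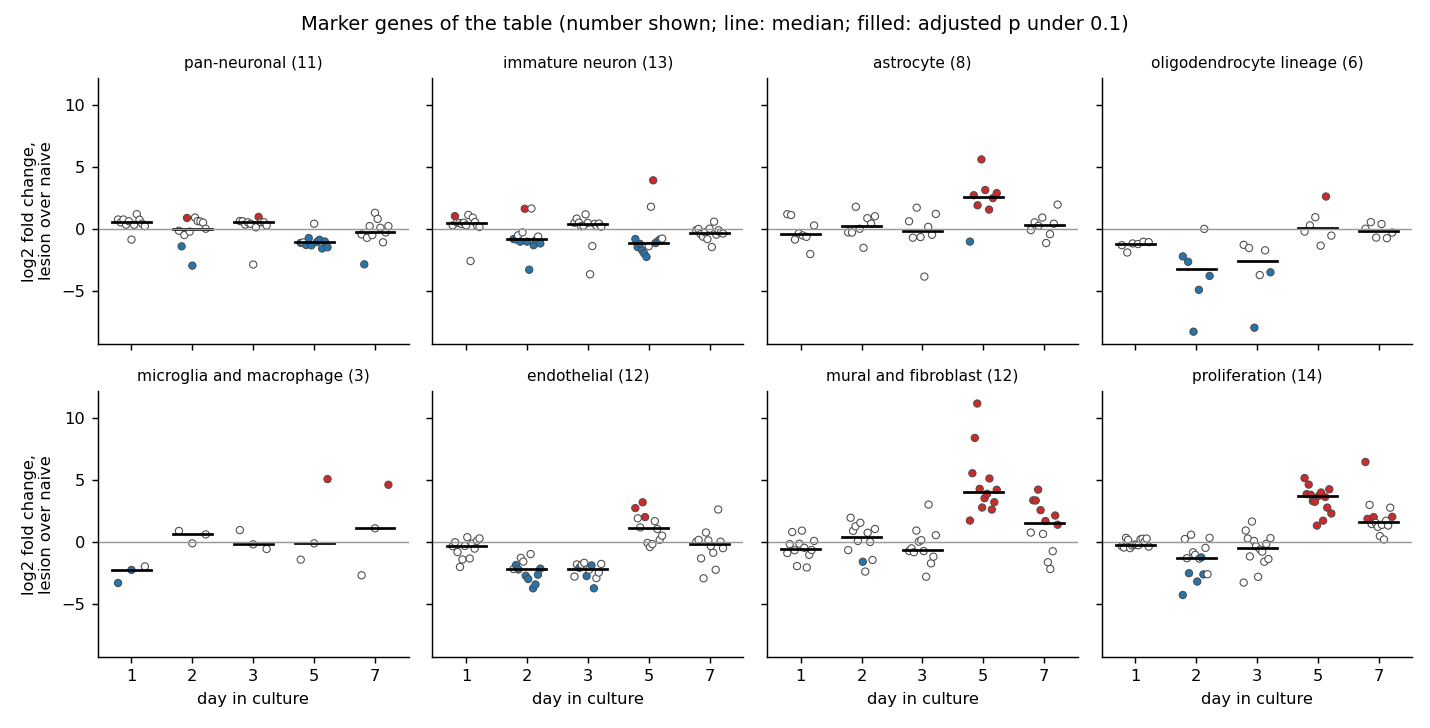
Log2 fold change of lesion over naive (y axis) by day in culture (x axis) of marker genes in the authors' deposited table, by list with the number of genes in brackets; each point is a gene, filled where it passed an adjusted p of 0.1, and the line is the median. Neuronal medians are -1.10 (pan-neuronal) and -1.15 (immature neurons, Dcx and Tubb3 included) at day 5, when the mural and fibroblast median is 4.03.

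The genes nearest to each member were found by the Euclidean distance between the 5 log2 fold changes, among named genes of rank up to 9542. Nearest to Map1b were Myh10 (distance 0.26), the gene of nonmuscle myosin IIB, Nfix (0.29) and Tulp4 (0.29). Nearest to Dcx were Nav3 (0.34), a plus-end protein gene, the guidance receptor gene Robo2 (0.37) and the proteoglycan gene Ncan (0.52). Among the genes near Dpysl2 were Rnf165 (0.30) and Hmgcs1 (0.41). The neighbours of Tubb3 were Dennd2a (0.20), the synaptotagmin gene Syt4 (0.27) and the ephrin gene Efnb3 (0.38), and those of Map2 were Slc35f1, Adcyap1r1 and Nfib (0.40 to 0.41). Gap43 was nearest to Gdap1l1 (0.21), Bex2 (0.24) and Actl6b (0.26), and Actb to Mex3c (0.19), Crk (0.32) and Elp4 (0.33).

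Map6d1 had no near neighbour. Its nearest genes were Sox10 (distance 1.78), a transcription factor of oligodendrocytes and neural crest, Cd93 (2.00), a gene of endothelial cells, and Utp14b (2.10). The nearest other member, Actb, was at a distance of 5.59. Sox10 had log2 fold changes of -3.80 at day 2 and -3.50 at day 3 in the authors' deposited table, beside -4.45 and -4.04 for Map6d1. Over the listed oligodendrocyte lineage markers in the authors' deposited table, Sox10 among them, the medians were -3.23 and -2.62 at those days. Over the endothelial ones they were -2.21 and -2.17. At days 5 and 7 the medians were 0.03 and -0.15 for the oligodendrocyte lineage and 1.10 and -0.18 for endothelial markers. Map6d1 had -1.35 and -1.64 at days 5 and 7, and fell at both. The part of those cells in the Map6d1 values was not tested.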

How the data were processed

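RNA of 29 libraries was sequenced on a HiSeq4000 after ultra-low input preparation, per the labels' protocols, and aligned with STAR to mm10, per the submitters' processing notes. How reads were counted, filtered and scaled, and whether strand was used, is not given in the sources used here. The deposited file holds log2 fold changes and the p-values, raw and adjusted, that the authors made with voom and limma, kept at a false discovery rate of 0.1, per the file headers and name. The deposited rank is a score with no explanation in the file, read as a rank of mean expression with low numbers for abundant genes. Adjusted p-values (Benjamini-Hochberg, within day) imply 19085 genes tested.

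The authors' comparisons were not fitted again, and new p-values were made only for centred values. Implied standard errors are the fold change over the t quantile of its p-value at 34 degrees of freedom, at which errors of 1 gene varied least over days (1674 listed genes ranked to 4771); this was tested on simulated data. Centred values were tested with those errors and adjusted over 19085 genes, with genes outside the table entered as not changed, so such counts are lower bounds; listed genes are selected, so their median is no estimate for all genes. Alternatives were other thresholds, a minimum log2 fold change, centring, ranks up to 9542 and 19 degrees of freedom. Named genes are the 8 members, up to 4 others per role list by smallest adjusted p, all genes risen at day 1 and each member's 3 nearest genes, and 2 genes that this rule names are not reported here; Tuba1a, Tuba1b, Tuba4a, Tubb2b, Map7d3, Pfn1, Rhoa, Vasp, Gpm6b, Ncam1, Sox4, Sox11, Celf4, Nefm, Fn1, Lum, Cd14 and Csf1r were named after their values were seen. Members, the 9 role lists (168 genes) and the 8 marker lists (122 genes) were chosen with earlier results of these data known. Symbols matched directly, except 1 through a synonym. Positions are from GENCODE vM21 and promoters from RefSeq. Python 3.11.15, numpy 2.4.6, pandas 2.3.3 and scipy 1.17.1 were used.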

Additional observations from a re-analysis of the deposited data

How the results depend on the processing

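Depth and values per library were not analysed here, so no library could be left out. No paired analysis was possible because the deposited table holds comparisons and no values per library. Of the members' counts by day and direction, the 6 fallen at day 2 were unchanged at an adjusted p under 0.05 and after centring on genes of similar rank. With an adjusted p under 0.05 the members gave 1 risen at day 1 and 0 fallen at days 3 and 7, and under 0.01 they gave 0 risen at day 1, 1 fallen at day 2, 0 at days 3 and 7 and 3 at day 5. Centring left 1 member risen at day 1 and 1 fallen at day 5; the Map6d1 call at day 5 was lost although its value moved away from 0. A minimum absolute log2 fold change of 1 kept every members' count within 1.5 times.

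Role-list genes, members included, gave 1 risen at day 1, 0 risen and 0 fallen at day 3, and 2 risen and 0 fallen at day 7 under 0.05. Under 0.01 they gave 0 risen at day 1, 4 fallen at day 2, 0 risen and 0 fallen at day 3, 5 risen and 13 fallen at day 5, and 0 risen and 0 fallen at day 7. A minimum of 1 on the log2 scale gave 12 fallen at day 2, 0 risen at day 3, 34 fallen at day 5 and 3 risen at day 7. Centring gave 1 risen and 1 fallen at day 1, 18 fallen at day 2, 0 risen at day 3, 6 fallen at day 5 and 3 risen at day 7. Leaving out the 8 members, a setting chosen after seeing the data, gave 0 risen at day 1, 0 fallen at day 3 and 1 fallen at day 7. Restriction to genes of rank up to 9542 moved no count by over 1.5 times.

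Marker genes gave 0 risen and 1 fallen at day 1, 1 risen and 16 fallen at day 2, 0 risen and 2 fallen at day 3 and 0 fallen at day 7 under 0.05. Under 0.01 they gave 0 risen and 0 fallen at day 1, 0 and 1 at day 2, 0 and 1 at day 3, 19 and 5 at day 5, and 4 and 0 at day 7. A minimum of 1 gave 1 risen at day 2 and 0 at day 3. Centring gave 0 risen at day 1, 16 fallen at day 2, 0 risen and 3 fallen at day 3, 1 fallen at day 5 and 2 fallen at day 7.

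Centring turned 4 small values that had not passed: Map1b (-0.036), Dpysl2 (-0.14) and Tubb3 (-0.013) at day 3 and Dcx (0.035) at day 7. Steps from day 3 to 5 moved to -1.04 for Gap43, -0.39 for Map1b, -1.50 for Dcx, -0.14 for Dpysl2, -0.27 for Tubb3, -1.84 for Map2 and 1.38 for Actb, and the step of Gap43 from day 2 to 3 turned to -0.10. With 19 degrees of freedom the implied errors of steps were 0.90 to 0.99 times as large. Stricter thresholds lower counts by construction, and the centre follows the selected genes of the table.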

Other observations

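Beside Map1b, Dcx and Dpysl2, the authors' deposited table holds 14 other genes that rose at day 1. The 5 described here were picked after their values were seen. Tcf4, a transcription factor of the E-protein family, had log2 fold changes of 0.98 at day 1 (adjusted p = 0.0423) and -1.41 at day 5 (adjusted p = 0.000138) in the authors' deposited table. Nfib, a nuclear factor I gene that is also among the nearest neighbours of Map2, had 1.09 and -1.37 at these days in the authors' deposited table. Smarca4, a catalytic subunit of chromatin remodelling complexes, had 0.81 and -0.72 in the authors' deposited table. Kif1b, a kinesin motor that carries cargo along axonal microtubules, had 0.97 and -0.77 in the authors' deposited table. Gria2, the AMPA receptor subunit gene, was the only one of the 17 that also rose at day 2 (0.79, adjusted p = 0.0575); it rose at day 3 as well (1.46, adjusted p = 0.00806) and fell at day 5 (-1.71, adjusted p = 0.000215) in the authors' deposited table.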
